A study of Mus musculus with 8 samples.

Results

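The subunits of oxidative phosphorylation that are encoded in the nucleus were described across mouse ES cells, neural precursor cells (NPC) and embryonic fibroblasts (MEF). Members were chosen by symbol alone: the probe sets annotated to a single gene whose symbol begins Nduf (a, b, c, s or v with a number), Uqcr or Atp5, is Sdha to Sdhd, or is a lettered Cox4 to Cox8 gene. This gave 161 probe sets of 78 genes, of 18193 genes in all, and the brightest probe set, by its mean on 8 arrays, stood for each gene. By complex, 33 genes belonged to complex I, 4 to complex II, 8 to complex III, 16 to complex IV and 17 to complex V, the ATP synthase. Ndufa4 and Cox7a2l were counted with complex IV, to which their products bind.

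Messenger RNA of wild-type mouse cells was measured on oligonucleotide arrays that cover the genome, with 1 intensity deposited for each probe set and array. The ES cells (3 arrays) were V6.5 cells, a pluripotent line from the blastocyst. They had been grown in 15% serum with leukemia-inhibiting factor on irradiated MEF, and then passaged on gelatin to free them of these feeder cells. The NPC (3 arrays) had been derived from ES cells through embryoid bodies for 4 days and selection in ITSFn medium for 5 to 7 days, and were kept in FGF2 and EGF2. The primary MEF (2 arrays) had been grown in 10% serum. Nothing in the labels ties the arrays to separate cultures, and p-values therefore reflect only how far these arrays differ, possibly for technical reasons. In such bulk RNA, fewer cells of a type and less RNA per cell cannot be told apart.

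In the inner mitochondrial membrane, complexes I to IV pass electrons from NADH and succinate to oxygen. Complexes I, III and IV pump protons, and the ATP synthase uses the proton gradient to make ATP. Most subunits are used in every tissue, but several small subunits of cytochrome c oxidase (complex IV) exist as tissue isoforms. Cox6a2, Cox7a1 and Cox8b are known as the forms of heart and skeletal muscle, and Cox6b2, Cox7b2 and Cox8c as forms of the testis. Their widely used counterparts are Cox6a1, Cox6b1, Cox7a2 and Cox8a. Subunits encoded in the mitochondrial genome carry other symbols and were not members.

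The promoters of 2 isoform pairs are shown first, because the testis form Cox6b2 and the muscle form Cox7a1 had the widest differences of all members. Each sequence is the 250 bases before the gene's start, from RefSeq (GRCm38.p6), on the gene's own strand, with CpG dinucleotides in capitals. Cox6b2 lies at chr7:4753095-4753344 on the minus strand, Cox6b1 at chr7:30626115-30626364 on the minus strand, Cox7a1 at chr7:30183921-30184170 on the plus strand and Cox7a2 at chr9:79759854-79760103 on the minus strand.
Cox6b2: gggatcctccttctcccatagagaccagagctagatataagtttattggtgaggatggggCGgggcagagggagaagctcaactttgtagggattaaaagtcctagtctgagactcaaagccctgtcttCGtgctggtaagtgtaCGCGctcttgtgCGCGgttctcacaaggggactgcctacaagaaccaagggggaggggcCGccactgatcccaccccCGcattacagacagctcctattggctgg
Cox6b1: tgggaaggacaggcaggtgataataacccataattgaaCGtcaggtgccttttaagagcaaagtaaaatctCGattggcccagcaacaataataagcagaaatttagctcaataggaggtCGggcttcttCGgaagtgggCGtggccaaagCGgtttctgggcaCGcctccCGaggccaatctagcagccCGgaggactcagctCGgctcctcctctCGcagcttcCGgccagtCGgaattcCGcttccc
Cox7a1: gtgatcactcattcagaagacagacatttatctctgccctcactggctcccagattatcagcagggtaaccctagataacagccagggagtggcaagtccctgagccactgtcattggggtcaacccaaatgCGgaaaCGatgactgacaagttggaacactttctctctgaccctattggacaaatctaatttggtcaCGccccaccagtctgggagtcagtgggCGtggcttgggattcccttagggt
Cox7a2: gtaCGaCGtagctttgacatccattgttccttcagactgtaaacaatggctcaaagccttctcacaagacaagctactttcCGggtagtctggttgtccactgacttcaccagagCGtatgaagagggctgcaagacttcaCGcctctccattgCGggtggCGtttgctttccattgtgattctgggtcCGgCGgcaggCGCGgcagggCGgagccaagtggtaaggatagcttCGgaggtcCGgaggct
The Cox6b2 window held 8 CpG and the Cox7a1 window 4, against 14 each in those of Cox6b1 and Cox7a2. A window was found for 66 of the 78 members, with a median of 14 CpG, and the median over all 27025 promoters in the table was 6. The 4 tissue isoforms with a window (Cox6b2, Cox7a1, Cox7b2 and Cox8b) held 1 to 9.

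The promoters of Sdha and Cox6a1 show the letters of nuclear respiratory factor 1, a transcription factor known for genes of the respiratory chain, because each held several matches. The motif is GCGC, any base and then TGCGC, and its matches on either strand are in capitals. The Sdha window is chr13:74350241-74350490 on the minus strand, with 3 matches, and the Cox6a1 window is chr5:115348959-115349208 on the minus strand, with 2.
Sdha: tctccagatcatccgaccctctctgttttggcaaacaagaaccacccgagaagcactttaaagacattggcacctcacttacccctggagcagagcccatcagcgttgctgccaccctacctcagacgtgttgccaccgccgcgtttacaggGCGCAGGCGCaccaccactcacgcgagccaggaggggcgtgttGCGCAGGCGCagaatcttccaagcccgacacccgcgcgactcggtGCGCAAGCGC
Cox6a1: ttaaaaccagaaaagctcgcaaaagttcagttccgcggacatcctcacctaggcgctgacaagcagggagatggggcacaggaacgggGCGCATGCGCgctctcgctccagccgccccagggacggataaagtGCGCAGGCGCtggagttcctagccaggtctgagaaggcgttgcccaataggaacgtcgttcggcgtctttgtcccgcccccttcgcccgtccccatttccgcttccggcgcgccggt
This motif was found in 10 of the 66 member windows (15.2%) and in 3.86% of all promoters. Among them Ndufb4, not shown, also held 3 matches. The letters themselves hold CpG, and the median CpG count was 14 in member windows and 6 over all promoters. The shares were not matched for CpG. The ETS letters CCGGAAG were in 11 (16.7%, all promoters 7.05%), the ERR letters CAAGGTCA in 3 (4.55%, all promoters 1.31%), the octamer ATGCAAAT in 1 (1.52%, all promoters 1.61%) and the YY1 letters AAGATGGCG in 0 (all promoters 0.607%). Both strands were searched, and each motif was counted on its own even where matches to different motifs could overlap. Members with and without the nuclear respiratory factor 1 letters had median log2 differences of 0.28 and 0.15 for NPC against ES cells. For MEF against ES cells the medians were -0.39 and -0.43. A match is only a description of these letters.

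Before normalisation, the arrays' median log2(intensity + 16) ran from 5.13 to 5.57 and both MEF arrays were the brightest. NPC 1 stood apart from its group, with correlations of 0.967 and 0.969 to the other NPC arrays, which correlated at 0.987. The summed intensity of 10 pluripotency markers was 38882 to 39654 in ES arrays, 2120 to 3919 in NPC arrays and 483 to 499 in MEF arrays. Summed fibroblast markers were 3723 to 4193, 426 to 518 and 47199 to 47760 in the same order. Summed neural precursor markers were 5169 to 5765, 22572 to 29422 and 12029 to 12052. Sox2 is in both the pluripotency and the neural precursor sum. In NPC arrays it was at 10.72 to 11.61 and Klf4 at 8.40 to 9.53, on quantile-normalised log2 values. The other pluripotency markers were at 5.63 or lower there. Of the 8 neural precursor markers measured, 6 were called higher in NPC than in ES cells, while Sox2 (-0.98) and Sox1 (-0.97) were lower at the adjusted p alone, and Vim was 0.32 higher in MEF than in NPC, all on quantile-normalised log2 values. The signal of the 3′ over the 5′ control probe sets of Actb, a measure of RNA quality, was 0.44 to 0.51 log2 units in ES arrays, 0.32 to 0.49 in NPC and 0.20 to 0.23 in MEF. The same measure on Gapdh ordered the groups otherwise, with -0.35 to -0.29 in ES, -0.49 to -0.44 in NPC and -0.36 to -0.32 in MEF, so NPC was lowest and MEF overlapped ES.

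All levels are given as quantile-normalised log2(intensity + 16). As a statement on signal and not on expression, since a probe set's intensity also depends on its sequence, the probe sets of 69 of the 78 members were in the brightest 10% of genes. The 9 others were the 6 tissue isoforms together with Ndufb1, Ndufb4 and Cox7c. No member's level is set against another's. The median SD of a member within a group was 0.06 among ES, 0.15 among NPC and 0.04 among MEF arrays, against 0.13, 0.21 and 0.07 over all genes.

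Between NPC and ES cells, the 3 members that passed the 2-fold threshold were isoforms of complex IV. At a limma adjusted p under 0.05 and at least 2-fold, Cox6a2 was higher in NPC, so 1 of 78 members was called higher where 10.0% of all genes were. Cox6b2 and Cox7a1 were lower, so 2 were called lower where 12.9% of all genes were. At the adjusted p alone, 32 were higher (20.8% of all genes), 11 were lower (26.1%) and 35 were not called. The median member difference was 0.16, against -0.05 over all genes. The 72 members that are not tissue isoforms lay between -0.82 (Uqcrc1) and 0.97 (Ndufa12), and 0 of them were called at 2-fold, while limma called 40 of them at the adjusted p alone.

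**Figure D1:**
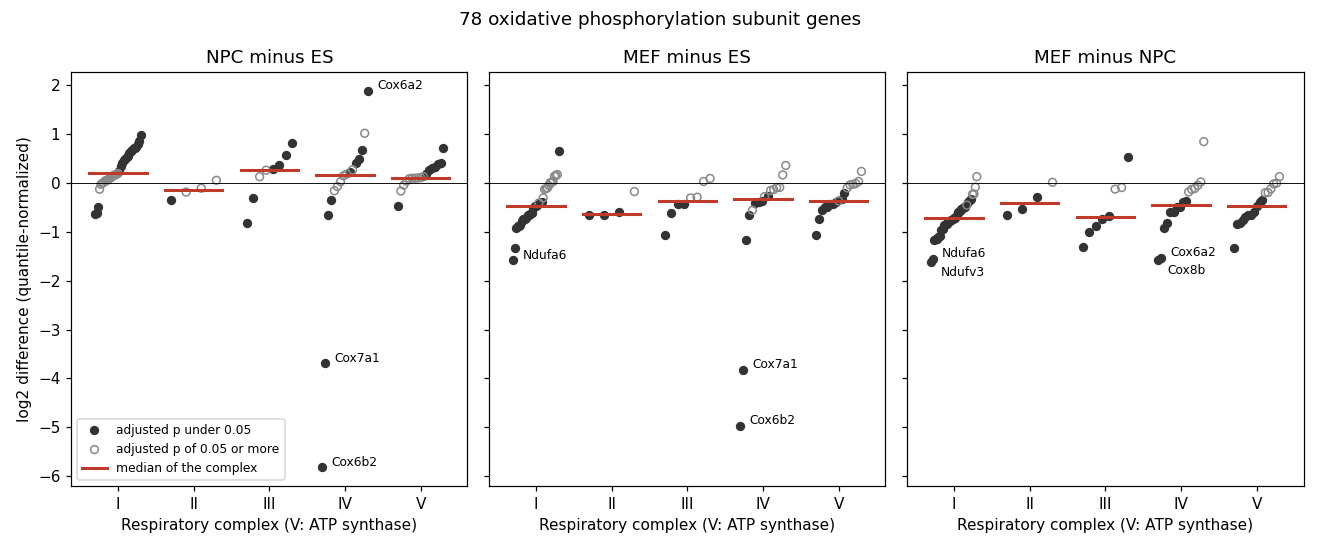
Log2 differences of the 78 subunit genes on quantile-normalised values, by complex, for NPC minus ES, MEF minus ES and MEF minus NPC; each point is a gene, filled points have a limma adjusted p under 0.05, and red bars are the medians. Cox6b2 and Cox7a1 lie far below the others against ES cells, and the MEF medians lie below 0 on this scaling, but above 0 in every complex on the deposited scaling.

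Cox6b2, the testis form of a small subunit at the interface of the complex IV dimer, had the widest difference. Its level was 11.26, 11.31 and 11.38 in the ES arrays, 6.74, 4.82 and 4.97 in the NPC arrays and 6.31 and 6.39 in the MEF arrays. The ES arrays stood far above all others, and NPC 1 was well above the other NPC arrays. It was 56.1-fold lower in NPC than in ES cells (log2 difference -5.81 ± 0.42 SE, limma adjusted p = 4.39e-06) and 31.3-fold lower in MEF (-4.97 ± 0.47, adjusted p = 2.62e-05). Without NPC 1 the NPC difference was -6.46. Its counterpart Cox6b1 was at 12.42 ± 0.04 (SD, n = 3) in ES cells, 12.83 ± 0.09 (n = 3) in NPC and 12.33 ± 0.02 (n = 2) in MEF.

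Cox7a1, the muscle form of another small subunit, was also highest in ES cells. It was at 8.72, 8.75 and 8.68 in the ES arrays, 4.94, 5.27 and 4.88 in the NPC arrays and 4.91 and 4.87 in the MEF arrays. The ES arrays were apart from all others, and NPC and MEF overlapped. It was 12.9-fold lower in NPC (log2 difference -3.69 ± 0.15, limma adjusted p = 1.24e-07) and 14.2-fold lower in MEF (-3.82 ± 0.17, adjusted p = 2.74e-07). Cox7a2 was at 12.82 ± 0.05 in ES cells, 12.84 ± 0.16 in NPC and 12.45 ± 0.07 in MEF.

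Cox6a2, also a muscle form, was the member higher in NPC. It was at 5.30, 5.19 and 5.51 in the ES arrays, 7.69, 6.89 and 7.07 in the NPC arrays and 5.83 and 5.55 in the MEF arrays, so the NPC arrays were above all others at a low level of signal. It was 3.69-fold higher in NPC than in ES cells (log2 difference 1.88 ± 0.23, limma adjusted p = 1.07e-04) and 2.88-fold lower in MEF than in NPC (-1.53 ± 0.25, adjusted p = 1.14e-03). The call against MEF was lost when all probe sets of the gene were averaged and with a pseudocount of 64. Its MEF difference from ES cells was 0.35 (adjusted p = 0.30). Cox6a1 was at 12.50 ± 0.01 in ES cells, 12.72 ± 0.05 in NPC and 12.36 ± 0.11 in MEF.

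The other isoforms were also below the brightest 10% of genes. Cox8b, of heart and muscle, was at 5.14, 4.76 and 4.19 in ES arrays, 4.70, 6.28 and 6.14 in NPC arrays and 4.06 and 4.20 in MEF arrays. NPC 1 fell within the ES range, and its difference from ES cells was 1.01 (adjusted p = 0.0719), or 1.52 without NPC 1 (adjusted p = 6.40e-04). It was 2.98-fold lower in MEF than in NPC (log2 difference -1.57 ± 0.46, limma adjusted p = 0.0225). That call was lost without either MEF array, without NPC 2 or NPC 3, with a pseudocount of 64 and in a fit of MEF and NPC alone. Cox8c was at 6.58 ± 0.13, 6.73 ± 0.16 and 6.74 ± 0.25 and Cox7b2 at 4.31 ± 0.14, 4.14 ± 0.19 and 4.03 ± 0.00 in ES, NPC and MEF, with no call in any comparison.

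**Figure D2:**
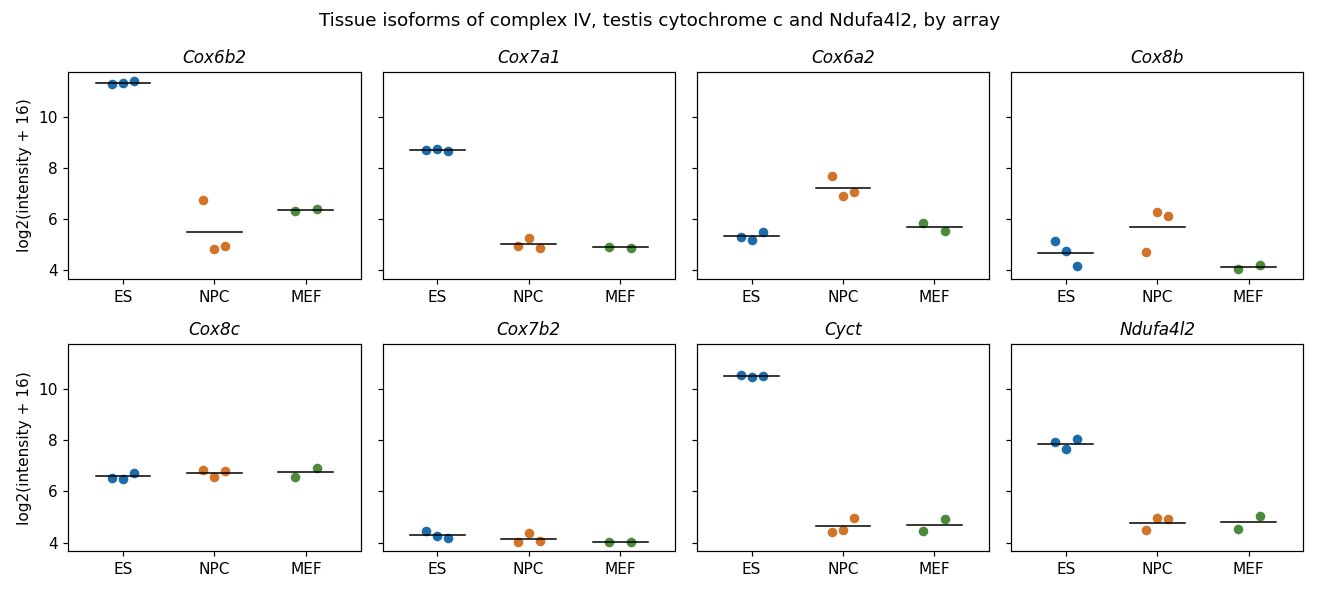
Level (quantile-normalised log2(intensity + 16)) of the 6 tissue isoforms of complex IV and of 2 related genes, Cyct and Ndufa4l2, in each array of ES (blue), NPC (orange) and MEF (green); bars are group means. Cox6b2, Cox7a1, Cyct and Ndufa4l2 are high in the 3 ES arrays and low elsewhere, and Cox6a2 is highest in the 3 NPC arrays.

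Markers of the tissues these isoforms are named for were checked. Over all genes, 10.0% were called higher and 12.9% lower in NPC than in ES cells, and 12.8% lower in MEF. Of 10 germ cell and testis markers, 4 were called lower in NPC and the same number in MEF, and their summed intensity was 1140 to 1433 in ES arrays, 69.7 to 92.6 in NPC and 61.0 to 75.1 in MEF. The 4 in NPC were Ddx4, Dazl, Sycp3 and Ldhc, and the spermatid genes Tnp1, Prm1 and Prm2 were near the bottom of the range in ES cells, at 4.53, 4.61 and 4.74. Of 15 striated muscle markers, 1 was called higher and 4 lower in NPC than in ES cells, with sums of 510 to 610 in ES arrays, 159 to 177 in NPC and 1374 to 1480 in MEF. In MEF, 5 of these 15 were called higher and 0 lower than in ES cells on quantile-normalised values (12.2% and 12.8% of all genes). Against NPC, 8 were called higher in MEF and 0 lower (10.5% and 7.95% of all genes). Markers of cells that neural precursors can give rise to moved too. Of 6 astrocyte markers 4 were called higher in NPC than in ES cells, with sums of 895 to 956 in ES arrays, 6680 to 8604 in NPC and 95.5 to 108 in MEF, while Gfap and Aqp4 were not called. Of 8 neuron markers 2 were called higher (Map2 and Dcx) and 2 lower (Stmn2 and Nefl), with sums of 3206 to 3289, 1716 to 2477 and 813 to 853. The part of other cell types in the differences between these groups was not tested.

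The ratio of an isoform to its counterpart within an array shows their unequal change. Cox6b2 over Cox6b1 was lower by a log2 value of -6.22 in NPC and -4.88 in MEF than in ES cells, and Cox7a1 over Cox7a2 by -3.71 and -3.45. Cox6a2 over Cox6a1 was 1.66 higher in NPC than in ES cells. In these comparisons the arrays did not overlap, and the 2-sided exact permutation p was 0.10, the smallest that groups of 3 and 3 or 3 and 2 arrays allow. Cox8b over Cox8a differed by 0.52 between NPC and ES cells (exact permutation p = 0.40) and Cox8c over Cox8a by -0.35 (exact permutation p = 0.20). The exact permutation p-values of 24 such ratio comparisons were not adjusted, since none could pass 0.05.

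Outside the symbol rule, 2 other isoform genes of the chain were high in ES cells. Cyct, the testis form of cytochrome c, was at 10.54, 10.48 and 10.49 in ES arrays, 4.42, 4.51 and 4.96 in NPC and 4.47 and 4.91 in MEF. Its log2 difference was -5.88 in NPC and -5.82 in MEF (limma adjusted p = 2.51e-08 and 7.99e-08), while the common form Cycs differed by 0.27 and -0.09. Ndufa4l2, a paralog of Ndufa4 known as a hypoxia-induced gene, was at 7.92, 7.64 and 8.03 in ES arrays and between 4.48 and 5.04 in all others. Its differences were -3.09 and -3.07 (limma adjusted p = 2.58e-06 and 5.87e-06). Cox4i1, the common form of a large nuclear-encoded subunit of complex IV, differed by 0.09 in NPC and -0.43 in MEF. Its lung form Cox4i2 was dim, with 0.04 and 0.62 (adjusted p = 0.93 and 0.11).

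Complex I, which takes electrons from NADH, was described by class. Of its 27 accessory genes, 15 were higher at the limma adjusted p alone, 1 was lower (Ndufa7) and 11 were not called, with a median difference of 0.34 (all genes -0.05). Over all genes, 20.8% were higher and 26.1% lower by this rule, and the same shares apply to the counts in complexes II to V. Of its 6 core genes, which carry the redox centres, 1 was higher (Ndufs8) and 2 were lower (Ndufs1 and Ndufv1), with a median of -0.04. The difference between these classes was not tested. Counting all 33, 27 differences were above 0.

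Ndufa12, an accessory subunit of the matrix arm, had the widest rise in complex I. It was at 11.01, 10.95 and 11.01 in ES arrays, 11.83, 12.13 and 11.92 in NPC and 10.98 and 11.05 in MEF, so the NPC arrays alone were apart. It was 1.96-fold higher in NPC than in ES cells (log2 difference 0.97 ± 0.08, limma adjusted p = 1.20e-05). Without NPC 1 the difference was 1.03, past 2-fold. Ndufa2, also accessory, rose by 0.85 and the iron-sulfur subunit Ndufs8 by 0.80. Ndufc2, Ndufv3, Ndufa5, Ndufa3, Ndufs5, Ndufa13 and Ndufb11, all accessory, rose by 0.54 to 0.72.

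Members that fell in NPC included core subunits of the NADH-oxidising module. Ndufs1, the largest iron-sulfur subunit, was at 10.26, 10.27 and 10.31 in ES arrays and 9.94, 9.45 and 9.57 in NPC, a log2 difference of -0.63 ± 0.12 (limma adjusted p = 1.75e-03). Ndufv1, which binds NADH and flavin, was at 10.74, 10.86 and 10.78 in ES arrays and 10.36, 10.20 and 10.35 in NPC, a difference of -0.49 ± 0.07 (adjusted p = 4.29e-04). The third core subunit of that module, Ndufv2, differed by 0.04 (adjusted p = 0.61). Ndufa7 was at 12.33, 12.36 and 12.41 in ES arrays and 11.74, 11.81 and 11.72 in NPC, a difference of -0.61 ± 0.06 (adjusted p = 2.77e-05). Its other probe sets had differences of -0.64, -0.63, -0.60 and 0.41, so the last lay on the other side. In each of these genes other than Ndufv2, all NPC arrays were below all ES arrays.

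Complex II, succinate dehydrogenase, had 1 of 4 members called between NPC and ES cells. Sdhd, a membrane anchor, was lower, at 10.73, 10.65 and 10.72 in ES arrays and 10.33, 10.35 and 10.33 in NPC (log2 difference -0.36 ± 0.06, limma adjusted p = 1.13e-03). The flavoprotein Sdha (-0.11), the iron-sulfur subunit Sdhb (0.05) and the other anchor Sdhc (-0.19) were not called. The median difference was -0.15 in this complex, and 0.11 to 0.27 in the others.

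In complex III, calls went in both directions. Uqcrc1 and Uqcrc2, the large core proteins that face the matrix, fell in NPC, and the Rieske iron-sulfur protein Uqcrfs1 rose by 0.58. Uqcrc1 was at 11.37, 11.40 and 11.30 in ES arrays, 10.78, 10.31 and 10.52 in NPC and 11.07 and 11.06 in MEF. It was 1.77-fold lower in NPC than in ES cells (log2 difference -0.82 ± 0.11, limma adjusted p = 1.99e-04), and every NPC array was below every other array. Of the 5 small subunits, 3 rose (Uqcrq, Uqcrh and Uqcr11) and 0 fell. The highest was Uqcrq at 0.82 ± 0.08 (adjusted p = 2.26e-05), with 10.71, 10.79 and 10.85 in ES arrays and 11.49, 11.73 and 11.59 in NPC.

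Among the 10 common genes of complex IV, 4 rose in NPC (Ndufa4, Cox8a, Cox6b1 and Cox6a1), 2 fell (Cox7c and Cox5a) and 4 were not called. Ndufa4 was at 10.91, 10.99 and 11.04 in ES arrays and 11.58, 11.71 and 11.65 in NPC (log2 difference 0.66 ± 0.07, limma adjusted p = 3.32e-05), and Cox8a rose by 0.49. Cox7c fell by 0.66, on a probe set below the brightest 10% of genes, and Cox5a fell by 0.34. In complex V, 7 of 17 rose, 1 fell and 9 were not called. Atp5l, subunit g of the membrane part, was at 11.09, 11.08 and 11.11 in ES arrays and 11.58, 11.99 and 11.85 in NPC (difference 0.71 ± 0.10, adjusted p = 2.89e-04). Atp5a1, the alpha subunit of the catalytic head, was at 12.48, 12.54 and 12.50 in ES arrays and 12.15, 11.91 and 12.06 in NPC (-0.47 ± 0.07, adjusted p = 5.36e-04), and its catalytic partner Atp5b differed by -0.17 (adjusted p = 0.089).

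**Figure D3:**
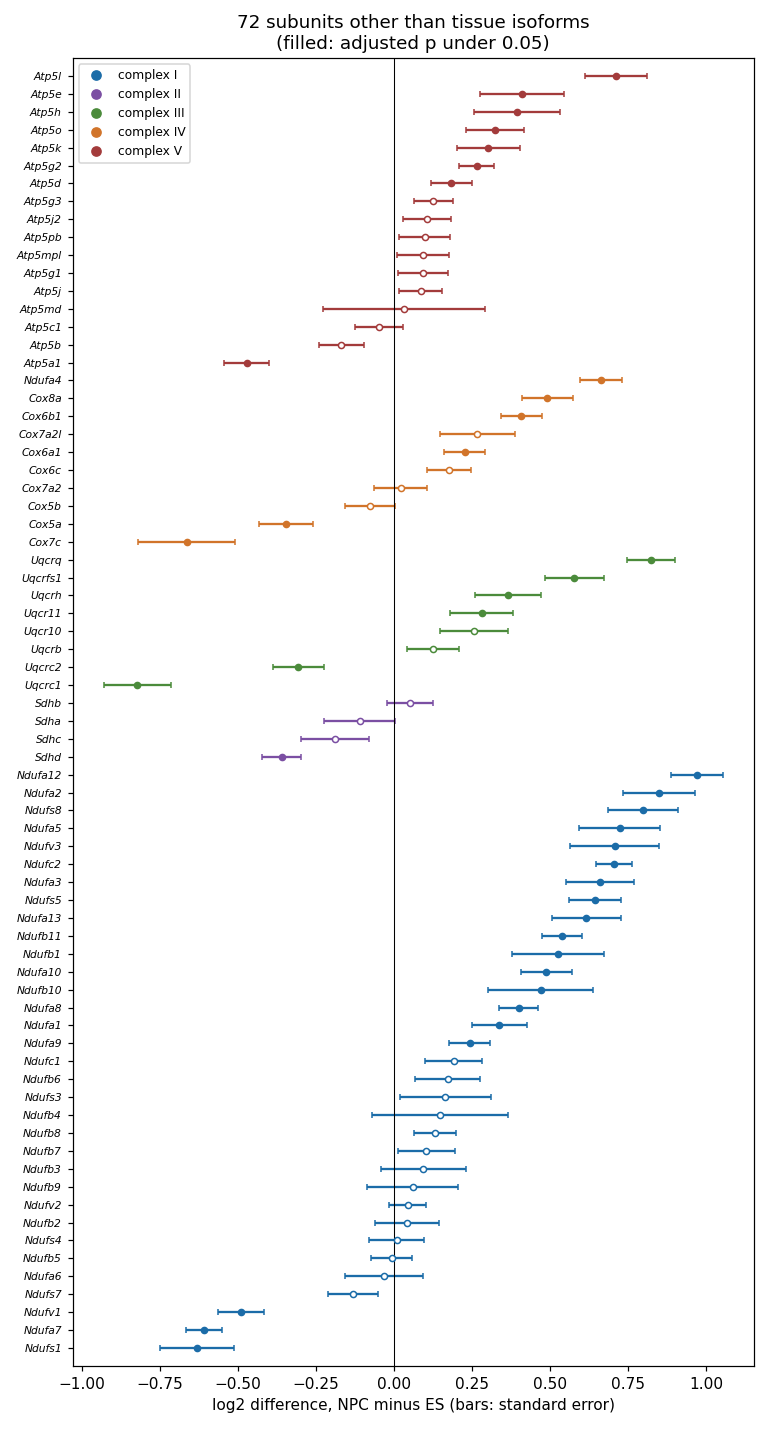
Log2 difference between NPC and ES cells, with its standard error, for the 72 subunits that are not tissue isoforms, coloured by complex; filled points have a limma adjusted p under 0.05. All lie between -0.82 and 0.97, with Ndufa12 highest and Uqcrc1 lowest.

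Some NPC calls depended on the scaling of the arrays. Of the 43 members called at the adjusted p alone, 25 were called in the same direction under all 6 scalings tried. How many calls over all genes held in this way was not counted, here or for MEF below. Such counts are therefore not set against other genes. The 16 higher were Atp5l, Cox6a2, Uqcrfs1, Uqcrq, Ndufa4 and 11 genes of complex I. The 9 lower were Atp5a1, Cox6b2, Cox7a1, Cox7c, Ndufa7, Ndufs1, Ndufv1, Sdhd and Uqcrc1. The member median was 0.09 to 0.17 over these scalings.

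For MEF, the direction of the common subunits as a group turned with the scaling. On quantile-normalised values the member median was -0.41 against ES cells, where all genes had -0.04, but it was 0.34 on the deposited scaling, where all genes had 0.32, and 0.014 with median centring. The member median minus that of all genes was -0.37 with quantile normalisation, -0.36 with the trimmed mean, -0.23 with cyclic loess and 0.02 on the deposited scaling and with both ways of centring it. Against NPC, the member median was -0.59 with quantile normalisation and 0.18 on the deposited scaling. Relative to all genes it was -0.58 with quantile normalisation and -0.26 on the deposited scaling, so members stayed below the median gene there.

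**Figure D4:**
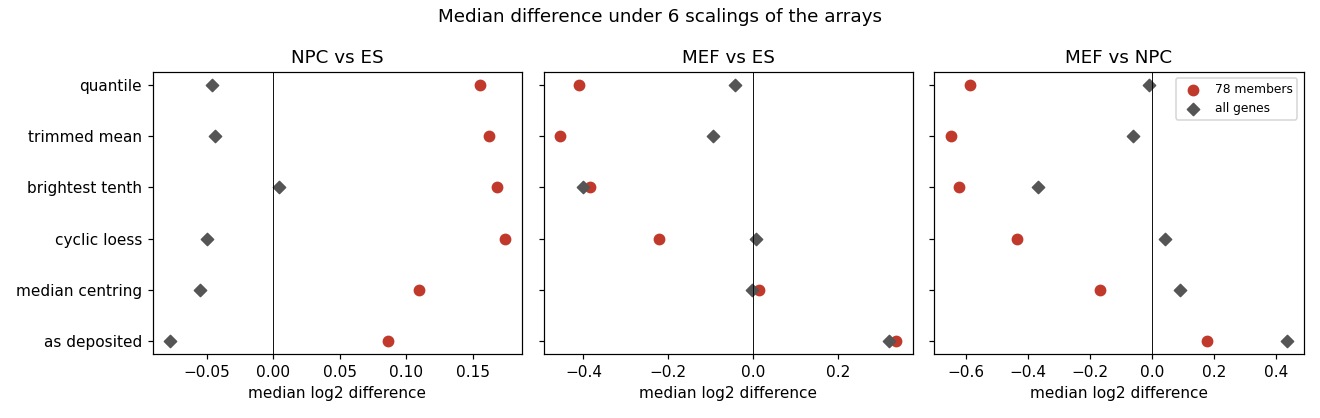
Median log2 difference of the 78 members (red circles) and of all genes (grey diamonds) under 6 scalings of the arrays, for each pair of groups; the horizontal scales differ. For NPC against ES cells the members are above all genes throughout; for MEF against ES cells the member median runs from -0.45 to 0.34 with the scaling.

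Against ES cells, MEF had 0 members called higher at 2-fold (12.2% of all genes) and 7 lower (12.8%) on quantile-normalised values. On the deposited scaling 1 was called higher and 2 lower, with 30.1% of all genes called in either direction. At the limma adjusted p alone, 1 was higher (21.1% of all genes), 45 were lower (25.3%) and 32 were not called. Of these calls, 5 held under all 6 scalings, with Ndufb1 higher and Cox6b2, Cox7a1, Ndufa6 and Ndufa7 lower. By complex the median ran from -0.63 in complex II to -0.32 in complex IV, and was above 0 in each of them on the deposited scaling. MEF arrays had the lowest 3′ over 5′ signal of Actb but overlapped ES arrays in that of Gapdh, and had summed macrophage markers of 1204 to 1212, against 643 to 695 in ES and 107 to 139 in NPC arrays. The part of RNA quality or of other cells in these differences was not tested.

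Ndufa6, an accessory subunit of complex I, had the lowest difference of the 72 common subunits in MEF. It was at 11.03, 10.96 and 11.08 in ES arrays, 10.68, 11.22 and 11.07 in NPC and 9.43 and 9.44 in MEF, with both MEF arrays below all others. It was 3.00-fold lower in MEF than in ES cells (log2 difference -1.59 ± 0.14, limma adjusted p = 1.56e-05), and -1.60 to -0.80 over the scalings. Ndufa7 was at 11.03 and 11.02 in MEF, below its NPC and ES levels given above, and 2.53-fold lower than in ES cells (-1.34 ± 0.07, adjusted p = 5.00e-07, with -1.42 to -0.61 over the scalings). Its other 4 probe sets had MEF differences of -1.81, -1.27, -1.45 and -0.77.

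Ndufb1, a small accessory subunit, was higher in MEF than in ES cells, on a probe set below the brightest 10% of genes. It was at 6.59, 6.65 and 7.05 in ES arrays, 7.17, 7.37 and 7.33 in NPC and 7.37 and 7.46 in MEF. The ES arrays were below all others. The difference was 0.65 ± 0.17 (limma adjusted p = 9.68e-03), with 0.65 to 1.45 over the scalings.

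The other members called lower in MEF than in ES cells were Atp5g2 (-1.07), Uqcr10 (-1.06), a small subunit of complex III, and Cox7c (-1.17). They were called at 2-fold under 3, 2 and 4 of the 6 scalings. With all probe sets averaged, the calls of Atp5g2 and Uqcr10 were also lost, without shared-sequence probe sets those of Uqcr10 and Cox7c, and with a pseudocount of 64 that of Cox7c. Uqcr10 was at 11.03, 10.99 and 11.13 in ES arrays, 11.05, 11.48 and 11.39 in NPC and 10.01 and 9.96 in MEF. Cox7c was at 7.26, 7.37 and 6.97 in ES arrays, 6.56, 6.37 and 6.68 in NPC and 6.03 ± 0.05 (SD, n = 2) in MEF. In both, the MEF arrays were below all others on this scaling. At the other end, the highest members of complexes II, III and V were Sdhc (-0.18), Uqcrq (0.09) and Atp5l (0.23), with none of them called.

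Subunit c of the ATP synthase, which forms the rotating ring in the membrane, is encoded by 3 genes that differ in the import signal and share the mature protein. Atp5g2 was at 12.05, 12.01 and 12.08 in ES arrays, 12.33, 12.33 and 12.27 in NPC and 10.98 and 10.96 in MEF. Atp5g1 was at 11.05, 11.10 and 11.18, then 11.18, 11.31 and 11.11, then 10.45 and 10.30. Atp5g3 was at 12.59, 12.59 and 12.71, then 12.82, 12.73 and 12.73, then 12.45 and 12.38. Atp5g1 and Atp5g2 were lowest in both MEF arrays by a wider margin than Atp5g3 on this scaling.

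The log2 ratio of these genes within an array differed in MEF. For Atp5g2 over Atp5g3 the difference was -0.86 against ES cells, and for Atp5g1 over Atp5g3 it was -0.52 against ES cells and -0.48 against NPC. The arrays did not overlap (exact permutation p = 0.10 each, the smallest possible). With the other scalings the Atp5g2 ratio was -0.75 to -0.70 against ES cells, so it kept its direction.

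Against NPC, 0 members were called higher in MEF at 2-fold (10.5% of all genes) and 12 lower (7.95%) on quantile-normalised values. On the deposited scaling 2 of 78 were called in each direction, a smaller share than that of all genes called in either direction. The 12 were Ndufv3, Ndufa6, Ndufc2, Ndufs5, Ndufb11, Ndufb10 and Ndufa13 of complex I, Uqcr10 and Uqcrfs1 of complex III, the isoforms Cox8b and Cox6a2, and Atp5g2. The call of Ndufb10 was lost without NPC 2 and that of Uqcrfs1 without MEF 2 or NPC 3. Averaging probe sets ended those of Atp5g2 and Uqcr10, and leaving out shared-sequence probe sets that of Uqcr10. At the limma adjusted p alone, 1 was higher (19.3% of all genes), 57 were lower (19.9%) and 20 were not called. The 6 calls that held under all 6 scalings were Uqcrc1 higher and Atp5g2, Cox6a2, Cox8b, Ndufa6 and Ndufv3 lower.

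Ndufv3, an accessory subunit beside the NADH site, differed most among the common subunits. It was at 10.79, 10.78 and 10.97 in ES arrays, 11.21, 11.82 and 11.64 in NPC and 9.89 and 9.96 in MEF, and the 3 groups did not overlap. It was 3.09-fold lower in MEF than in NPC (log2 difference -1.63 ± 0.16, limma adjusted p = 4.49e-05, with -1.64 to -0.75 over the scalings). Atp5g2 was 2.53-fold lower (-1.34 ± 0.06, adjusted p = 5.49e-07, with -1.39 to -0.49) and Uqcr10 was 2.50-fold lower (-1.32 ± 0.12, adjusted p = 3.15e-05, with -1.32 to -0.42). Uqcrc1 was 0.53 ± 0.12 higher (adjusted p = 7.29e-03, with 0.52 to 1.42 over the scalings).

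Without NPC 1, 16 members were called in MEF against NPC, 1 higher and 15 lower, and 19.8% of all genes were called in either direction. Cox6b2 was then higher in MEF by 1.46 (limma adjusted p = 8.74e-07). With all arrays its difference was 0.84 (adjusted p = 0.21), and NPC 1 lay above both MEF arrays. In complex II, Sdhb had the lowest difference, -0.66, and Sdhc the highest, 0.01. In complex V the highest was Atp5b at 0.13 (adjusted p = 0.28).

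**Figure D5:**
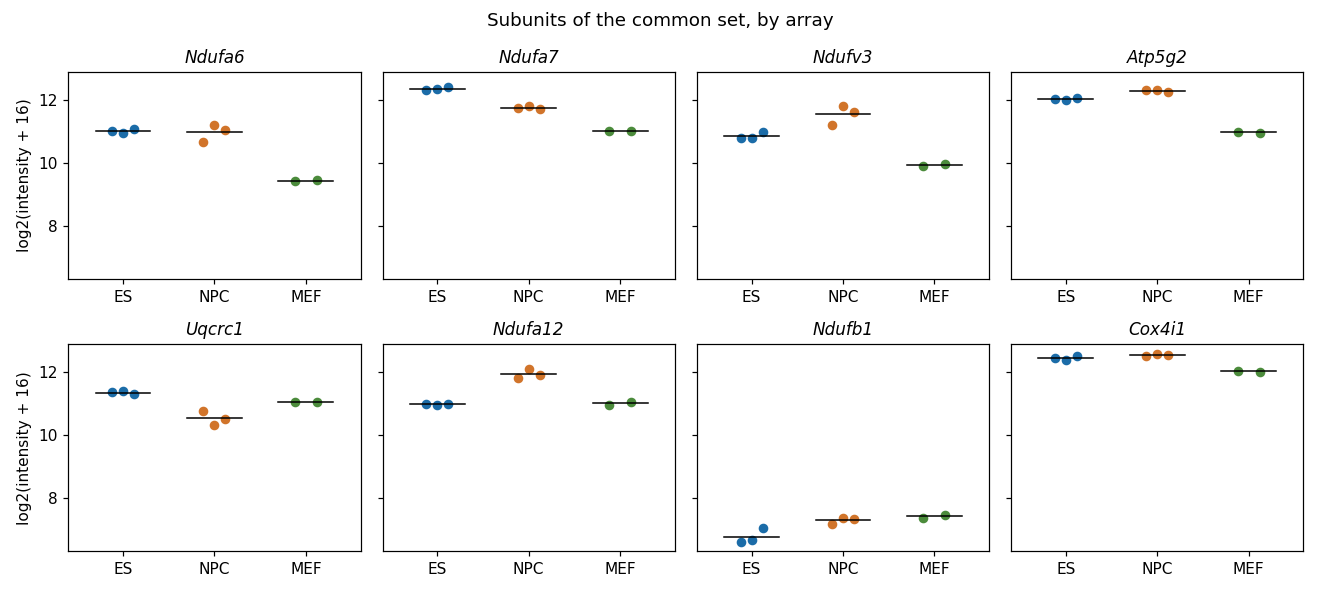
Level (quantile-normalised log2(intensity + 16)) of 7 common subunits and of Cox4i1, which lies outside the symbol rule, in each array of ES (blue), NPC (orange) and MEF (green); bars are group means. Ndufa6, Ndufa7, Ndufv3 and Atp5g2 are lowest in both MEF arrays on this scaling, Uqcrc1 is lowest in the 3 NPC arrays and Ndufa12 is highest there.

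On quantile-normalised values, the group means fell in the order NPC, ES, MEF for 45 of the 78 members (57.7%), an order that 14.8% of all genes had, and MEF changed its place on the deposited scaling. Adjusted p-values alone were over 0.05 in all comparisons for 11 members, among them the ATP synthase beta subunit Atp5b, Sdhc and Uqcrb. The comparisons share arrays and are not independent. Many members had further probe sets. Of the members called at the adjusted p alone, all other sets lay on the same side for 18 of 25 that had any in NPC against ES cells, 24 of 29 in MEF against ES cells and 31 of 37 in MEF against NPC. For the same members, other probe sets above a mean log2 level of 8 were also taken alone. All such sets lay on the same side for 18 of 19 members in NPC against ES cells, with Ndufa7 the exception. They did so for 22 of 22 in MEF against ES cells and 27 of 27 in MEF against NPC.

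Regulators of mitochondrial biogenesis were taken as a list. Of 22 such genes, 1 was called higher at 2-fold in NPC than in ES cells and 5 were lower (10.0% and 12.9% of all genes), with a median of -0.58 (all genes -0.05). The gene that rose was Ppargc1a, the coactivator known to drive mitochondrial biogenesis, at 4.16, 4.06 and 4.47 in ES arrays, 6.72, 6.31 and 6.52 in NPC and 4.66 and 4.87 in MEF. Its difference was 2.29 in NPC (limma adjusted p = 7.05e-06), with all NPC arrays above all others. Those that fell were the related coactivators Ppargc1b (-1.27) and Pprc1 (-1.31), Nrf1 (-1.11), the mitochondrial rRNA methyltransferase Tfb1m (-1.36) and Esrrb (-5.18), which is also a pluripotency factor. Gabpa, an ETS factor, differed by -0.90, Esrra by 0.31 and the mitochondrial DNA packaging factor Tfam by -0.56. The calls of these 5 and of Ppargc1a held under all 6 scalings. In MEF, 1 was called higher and 9 lower than in ES cells on quantile-normalised values (12.2% and 12.8% of all genes). On the deposited scaling 2 were higher and 1 lower, with 30.1% of all genes called in either direction.

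Assembly factors help to build the complexes without staying in them. For complex I, 0 of 15 were called higher and 3 lower in NPC than in ES cells, where 12.9% of all genes were lower: Nubpl (-2.67), which delivers iron-sulfur clusters, Ndufaf7 (-1.63) and Ndufaf6 (-1.26). In MEF, 0 were called higher and 6 lower than in ES cells on quantile-normalised values (12.2% and 12.8% of all genes). On the deposited scaling 2 were called in each direction, with 30.1% of all genes called in either direction. Nubpl and Tmem186 were called lower under all 6 scalings. Nubpl was at 9.78, 9.69 and 9.71 in ES arrays, 7.37, 7.01 and 6.81 in NPC and 7.28 and 7.34 in MEF. Its ES arrays were above all others. Of 18 measured factors of complex IV, Cox20 (1.28), Cox19 (1.16) and the copper chaperone Sco1 (1.03) were called higher in NPC. Cox18 (-1.02) was called lower, where 10.0% of all genes were called higher and 12.9% lower. The call of Sco1 held under 3 of the 6 scalings and the others under all 6.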

How the data were processed

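The deposited values were linear intensity per probe set, on 45101 probe sets and 8 arrays. Per the submitters' processing notes the software was GCOS 1.4. Which algorithm, background correction and scaling it applied is not given in the sources used here. Gene names came from the platform annotation, updated through RefSeq. After 64 control probe sets were removed, 34945 named a single gene, 932 named several and 9160 none, and the last 2 kinds were not analysed here.

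Values were set to log2(intensity + 16), so folds of dim genes are understated, and quantile normalised. A linear model of all 8 arrays was fitted in R 4.3.3 with limma 3.58.1 and a variance trend. P-values were adjusted over 18193 genes by the Benjamini-Hochberg method. Calls needed at least 2-fold and an adjusted p below 0.05, or, where stated, the adjusted p alone. The steps were tested on simulated data. Paralog ratios were compared by 2-sided exact permutation tests. Summed marker levels are sums of normalised intensities, after subtraction of 16.

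Members and lists were chosen with earlier results of these data known. The genes named include the members called at 2-fold, the highest and lowest member of each complex in each comparison and the paralog pairs. From pathway lists, called genes were named for some lists and comparisons and not for all. Further members, such as Ndufs8, Ndufv1 and Cox5a, were picked for description outside these rules. Alternatives were 5 other scalings, other pseudocounts, filters, probe set rules, variance and array weights, the compared groups alone, a replicate block, other thresholds and fits without each array in turn. The replicate numbers gave no sign of a pairing of arrays. Deviations of arrays with the same number correlated at -0.02 to 0.02, and those with different numbers at -0.03 to 0.04. With so few arrays in a group, this check cannot exclude a pairing. Neither array depth nor detection calls were used, and the number of arrays limits the precision.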

Additional observations from a re-analysis of the deposited data

How the results depend on the processing

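For NPC against ES cells, 3 members were called in each alternative except 4 with cyclic loess or array weights, 19 at 1.5-fold, and leaving out arrays, which gave 3 to 5 (5 without NPC 1, when Cox8b and Ndufa12 joined). For MEF against ES cells, 7 became 3 on the deposited scaling, 4 with median centring and 26 at 1.5-fold. Over all genes, 30.1% were called on the deposited scaling and 26.3% with median centring. For MEF against NPC, 12 became 7 with cyclic loess, 4 on the deposited scaling, 5 with median centring and 40 at 1.5-fold. Over all genes, 19.2% were called with cyclic loess and 21.2% with median centring. On the deposited scaling a larger share of all genes than of members was called. The counts at 1.5-fold are given without the share of all genes called at that threshold. By size alone, 58 of 78 members lay within 1.5-fold in NPC against ES cells (61.4% of all genes). For MEF it was 52 against ES cells (58.3%) and 37 against NPC (65.9%). The member median for MEF against ES cells was -0.22 with cyclic loess and -0.45 with the trimmed mean, and turned to 0.34 on the deposited scaling and 0.014 with median centring. For MEF against NPC it was -0.44 with cyclic loess and -0.17 with median centring, and turned to 0.18 on the deposited scaling. On that scaling the medians of complexes I to V also turned, to 0.30, 0.17, 0.36, 0.24 and 0.39 against ES cells and to 0.12, 0.51, 0.15, 0.16 and 0.32 against NPC. With median centring, complexes III (0.036) and V (0.064) turned against ES cells and complex II (0.17) against NPC. With a replicate block 3, 7 and 12 members were called, as without it. The deposited scaling is not documented, so the direction of whole-group shifts in MEF is not settled, and probe sets near the bottom of the range (Cox7b2, Ndufb4, Cox8b) give little information. For single genes, ratios and complexes, 1026 values kept their direction and side of the threshold, or moved by less than the spread. Of the rest, 56 lost their call, 117 moved further and 13 turned, which are the medians by complex just given. The single genes in this tally were only the 22 calls at 2-fold. Many other members changed direction in MEF between scalings, such as Atp5a1, at -0.62 to 0.19 against ES cells. The Cox7a1 over Cox7a2 ratio between MEF and NPC was 0.25, and -0.11 to 0.36 with the other scalings.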

Other observations

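Mitochondrial ribosomal proteins, which translate the subunits encoded in the mitochondrial genome, were not members but belong to the same organelle. Of 76 measured, 2 were called higher and 2 lower at 2-fold in NPC than in ES cells (10.0% and 12.9% of all genes), with a median log2 difference of -0.02. Mrps6 was at 9.36, 9.19 and 9.23 in ES arrays, 10.84, 11.77 and 11.78 in NPC and 9.50 and 9.56 in MEF, and was 2.20 higher in NPC than in ES cells (limma adjusted p = 3.55e-05). Mrpl20 was 1.08 higher, a call that held under 4 of 6 scalings, and Mrpl15 (-1.18) and Mrpl24 (-1.01) were lower. The NPC arrays of Mrps6 were above all others, and its call held under all 6 scalings. In MEF, 0 were called higher and 21 lower than in ES cells on quantile-normalised values, with a median of -0.68. Over all genes, 12.2% were called higher and 12.8% lower. On the deposited scaling 5 were higher and 0 lower (median 0.14), with 30.1% of all genes called in either direction. The lowest was Mrpl39 (-1.76), with a range of -1.76 to -0.97 over the scalings.

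Of 17 measured enzymes of the tricarboxylic acid cycle and pyruvate dehydrogenase, 0 were called by limma at 2-fold between NPC and ES cells. Over all genes, 10.0% were called higher and 12.9% lower. At the adjusted p alone, 3 enzymes were higher (20.8% of all genes) and 6 were lower (26.1%). Pdhb, a subunit of pyruvate dehydrogenase, was called lower in MEF than in ES cells under 5 of 6 scalings (-1.49 on quantile-normalised values). Among the ATP synthase assembly factors, Tmem70 was 1.19 higher in MEF than in ES cells (limma adjusted p = 4.64e-06) and was called under all 6 scalings. Slc25a27, a brain-expressed uncoupling protein of the carrier list, was lower in MEF than in NPC under all 6 scalings, at -1.74 on quantile-normalised values.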
